A study of Mus musculus with 29 samples.

Results

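The genes described here are 31 genes that neurons use to build and run synapses or that mark a cell as a neuron. Their counts were followed in 29 libraries of RNA from a pulldown aimed at tagged ribosomes of microglia. The genes were chosen by name from a list of 33 symbols, and 31 of these are among the 22327 genes of the count table. Nefl and Tubb3 are not analysed here. By role they comprise 3 genes of excitatory neurons, 5 of inhibitory neurons and 23 general neuronal genes, the last made up of 10 presynaptic, 7 postsynaptic and 6 identity or cytoskeletal genes. All 31 passed the low-count filter, also when only the 16 libraries without the iPKR construct were used, and none was at 0 counts in any library. Fewer than 10 counts were found for Slc32a1 in 8 libraries, for Grin1 in 2, and for Gabrb2 and Kcnc1 in 1 each.

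The study set out to ask how the integrated stress response, a brake on protein synthesis set by phosphorylating eIF2α, changes microglia in mice with and without amyloid disease. Translating ribosome affinity purification (TRAP) was used: a green fluorescent tag on the ribosomal protein L10a was switched on by tamoxifen through a Cre driven by Cx3cr1, a gene of microglia and other tissue macrophages, and ribosomes from frozen cortex were pulled down with a GFP antibody. Every mouse was 6 months old, carried Cx3cr1CreErt2/+ and had received 6 doses of 100 mg/kg tamoxifen at 4 to 6 weeks of age. Libraries of polyA RNA came in 2 batches, as the labels call them, and from 1 mouse each. The 5xFAD iPKR mice (n = 4) combined the 5xFAD amyloid transgenes with Eef1a1LSL.NS3.eGFPL10a.iPKR/+, an allele in which the tag is combined with the viral protease NS3 and an inducible PKR, a kinase of eIF2α, and were given VEGF (1 µg/kg) and the NS3 inhibitor ASV (asunaprevir, 5 mg/kg) for 4 weeks. The iPKR ASV mice (n = 5) had the same allele and treatment without 5xFAD, and the iPKR vehicle mice (n = 4) received VEGF with the PEG:DMSO vehicle in place of ASV. The 5xFAD Eif2A (n = 3) and Eif2A mice (n = 4) carried Eif2s1A/A, whose eIF2α cannot be phosphorylated, with a floxed Eif2s1 transgene, and received tamoxifen alone; the tag is in the sample labels of these groups and not in the genotypes of the series description. The 5xFAD TRAP mice (n = 4, VEGF and ASV) and the TRAP mice (n = 5, tamoxifen alone) carried Eef1a1LSL.eGFPL10a/+. So 5xFAD iPKR and 5xFAD TRAP shared their treatment, while iPKR vehicle and TRAP differed in VEGF and vehicle as well as in the allele.

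At a synapse, a presynaptic terminal releases transmitter when calcium makes docked vesicles fuse through the SNARE proteins, and receptors held in a scaffold on the postsynaptic side receive it. Excitatory neurons of the cortex load glutamate into their vesicles, and inhibitory neurons make and load GABA. Microglia neither fire action potentials nor form synapses, and these genes are used as markers of neurons. Here they serve as a measure of RNA from cells other than microglia in each library. Which cells their counts came from was not tested. In libraries made from tissue, fewer cells of a type and less RNA per cell cannot be told apart.

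Totals ran from 1.662 to 31.998 M counts per library, and the 16 homeostatic microglial genes measured, such as Csf1r and P2ry12, took 0.175% to 1.77% of counts in 5xFAD iPKR, 0.0796% to 0.877% in iPKR ASV and 0.214% to 0.444% in iPKR vehicle, against 3.36% to 5.36% in the 16 other libraries. None of the 16 was at 0 in every library of a group. Y-linked counts went against the labelled sex in 8 of the 29 libraries, namely Eif2A replicates 3 and 4, iPKR ASV replicates 1, 3, 4 and 5, and 5xFAD iPKR replicates 1 and 2. The 3 libraries richest in the neuronal genes, 5xFAD iPKR replicates 1 and 2 and iPKR ASV replicate 3, were all of batch 1 and are among these 8. The 6 of the 8 labelled iPKR had the low share of homeostatic microglial genes of the iPKR libraries; whether other labels of the 8, such as 5xFAD or treatment, are also in error was not tested. Fold changes of members in 5xFAD iPKR against 5xFAD TRAP are given with and without these 3 libraries. Without them 5xFAD iPKR keeps replicates 3 and 4 alone, which are of batch 2, while 5xFAD TRAP keeps libraries of both batches. These 3 libraries were picked by the values of the members themselves. Cx3cr1 was at 720.0, 16.97, 662, 616 and 710.2 CPM in TRAP, so that replicate 2 of that group stood apart for the gene that drives the Cre. In iPKR vehicle replicate 1 Cx3cr1 had 0 counts, while the other 3 libraries of that group held 27.96 to 44.06 CPM. Leaving out either library kept all 31 members called in iPKR vehicle against TRAP. Comparisons used edgeR's quasi-likelihood test on the counts with group, batch and labelled sex in the model. A gene was called at a Benjamini-Hochberg adjusted p under 0.05 over 16074 genes, and values in CPM (counts scaled to library size) are scaled further with TMM factors. Values of single libraries are listed by replicate number. Each p-value sets a difference between groups against the spread between mice. That spread is estimated for each gene over all 29 libraries together, so groups of unlike spread share the same estimate.

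Promoters of members are shown as background. Several neuronal genes are textbook targets of the repressor REST, which binds the RE1 element outside neurons. Others are targets of the activity-dependent factor CREB, which binds the CRE. RefSeq (GRCm38.p6) gave 30 promoters for 24 of the 31 members, each from 250 bases before to 50 bases after a transcription start; Camk2a, Snap25, Vamp2, Gria1, Grin2b, Nefm and Mapt had none. The letters TTCAGCACC, the left part of the RE1, stood on either strand in 0.371% of 32851 mouse promoters of the same length. Among the 30 member promoters they were in 1, that of Syn1. The letters GGACAG, the right part of the RE1, were in 22.2% of all promoters and in 10 of the 30 member promoters, among them those of Slc17a7 and Gad2. The letters TGACGTCA, a full CRE, were in 1.79% of all promoters and in 2 of the 30 member promoters, those of Sst and Syn1. These matches describe the letters in these windows only, and their part in the fold changes of the members was not tested. The promoters of Syn1 (chrX:20920869-20921168, minus strand), Sst (chr16:23890795-23891094, minus strand), Slc17a7 (chr7:45163671-45163970, plus strand) and Gad2 (chr2:22622077-22622376, plus strand) follow 5′ to 3′ with these matches in capitals. They stand for a general presynaptic, an interneuron peptide, an excitatory and an inhibitory gene.
Syn1: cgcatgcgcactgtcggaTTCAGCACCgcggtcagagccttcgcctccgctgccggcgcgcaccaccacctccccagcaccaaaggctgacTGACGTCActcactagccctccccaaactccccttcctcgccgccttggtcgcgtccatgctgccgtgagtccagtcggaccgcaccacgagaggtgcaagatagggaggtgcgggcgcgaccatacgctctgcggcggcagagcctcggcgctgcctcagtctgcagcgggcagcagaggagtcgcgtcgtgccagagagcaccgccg
Sst: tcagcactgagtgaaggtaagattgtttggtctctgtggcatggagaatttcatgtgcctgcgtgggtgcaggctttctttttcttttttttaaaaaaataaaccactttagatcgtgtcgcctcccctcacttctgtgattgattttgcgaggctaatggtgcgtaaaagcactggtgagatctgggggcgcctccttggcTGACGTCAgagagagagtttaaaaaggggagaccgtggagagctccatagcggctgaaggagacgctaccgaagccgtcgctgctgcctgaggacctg
Slc17a7: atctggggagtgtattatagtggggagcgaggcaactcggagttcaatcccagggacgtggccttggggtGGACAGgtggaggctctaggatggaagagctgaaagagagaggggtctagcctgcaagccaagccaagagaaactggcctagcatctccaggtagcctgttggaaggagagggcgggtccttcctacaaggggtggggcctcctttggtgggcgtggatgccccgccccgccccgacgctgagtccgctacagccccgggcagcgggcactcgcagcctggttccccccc
Gad2: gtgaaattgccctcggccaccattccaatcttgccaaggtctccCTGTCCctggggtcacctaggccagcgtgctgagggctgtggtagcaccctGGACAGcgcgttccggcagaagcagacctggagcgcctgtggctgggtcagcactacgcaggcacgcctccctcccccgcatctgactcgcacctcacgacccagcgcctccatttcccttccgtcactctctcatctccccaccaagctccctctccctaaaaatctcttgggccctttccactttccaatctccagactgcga

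Counts of the 31 neuronal genes took a larger share of every library with the iPKR construct than of any library without it. Together they made up 2.78% ± 1.96 of counts in 5xFAD iPKR (SD, n = 4), 2.17% ± 0.906 in iPKR ASV (n = 5), 1.65% ± 0.0853 in iPKR vehicle (n = 4), 0.179% ± 0.0260 in 5xFAD Eif2A (n = 3), 0.231% ± 0.0208 in Eif2A (n = 4), 0.361% ± 0.161 in 5xFAD TRAP (n = 4) and 0.274% ± 0.0224 in TRAP (n = 5). The lowest iPKR library held 1.08%, and the highest library without the construct held 0.585%. Without 5xFAD iPKR replicates 1 and 2 and iPKR ASV replicate 3, the means were 1.1% ± 0.0184 in 5xFAD iPKR (n = 2) and 1.81% ± 0.465 in iPKR ASV (n = 4), so that 5xFAD iPKR was then the lowest of the iPKR groups. Spread was small in iPKR vehicle, at 1.54% to 1.75%, and wide in 5xFAD iPKR, at 1.08% to 4.75%. The 3 highest libraries were 5xFAD iPKR replicate 2 at 4.75% (95% Wilson interval 4.72% to 4.78%), 5xFAD iPKR replicate 1 at 4.17% (95% Wilson interval 4.14% to 4.19%) and iPKR ASV replicate 3 at 3.62% (95% Wilson interval 3.605% to 3.64%). Over all libraries the Wilson intervals reached at most 2.24% of the share to either side, and such intervals cover counting error only. No test was made of a sum over chosen genes.

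The excess was not carried by Snap25 alone. Without Snap25, the other 30 genes took 1.21% ± 0.493 in 5xFAD iPKR, 1.29% ± 0.370 in iPKR ASV and 1.23% ± 0.101 in iPKR vehicle. They took 0.132% ± 0.0197 in 5xFAD Eif2A, 0.176% ± 0.0186 in Eif2A, 0.199% ± 0.0237 in 5xFAD TRAP and 0.209% ± 0.0151 in TRAP. The means of the iPKR groups, which differed by more than 1 percentage point with Snap25, lay close together without it. When the 3 richest libraries were also left out, 5xFAD iPKR was lower, at 0.798% ± 0.0292 (n = 2), than iPKR ASV, at 1.14% ± 0.146 (n = 4). The 4 groups without the construct also differed less among themselves.

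The classes kept unequal proportions. The 3 excitatory genes took 0.139% ± 0.0377 of counts in 5xFAD iPKR, 0.207% ± 0.0380 in iPKR ASV, 0.281% ± 0.0547 in iPKR vehicle, 0.0344% ± 0.0124 in 5xFAD TRAP and 0.0421% ± 0.0132 in TRAP (SD; n = 4, 5, 4, 4 and 5). The 5 inhibitory genes took 0.109% ± 0.0603 in 5xFAD iPKR, 0.0813% ± 0.0518 in iPKR ASV, 0.0605% ± 0.0217 in iPKR vehicle, 0.0141% ± 0.00440 in 5xFAD TRAP and 0.0116% ± 0.00317 in TRAP. In the Eif2A groups the excitatory genes were at 0.0304% ± 0.00748 in 5xFAD Eif2A and 0.0372% ± 0.00634 in Eif2A, and the inhibitory genes at 0.00627% ± 0.00257 in 5xFAD Eif2A and 0.00904% ± 0.00162 in Eif2A. Among the iPKR groups the excitatory mean was highest in iPKR vehicle, whereas the inhibitory and general means were highest in 5xFAD iPKR, an order that rests on the 3 richest libraries. Without them the inhibitory means were 0.0566% ± 0.00308 in 5xFAD iPKR (n = 2) and 0.0588% ± 0.0135 in iPKR ASV (n = 4). The general means were then 0.909% ± 0.0395 in 5xFAD iPKR and 1.53% ± 0.438 in iPKR ASV, and both 5xFAD iPKR means were below those of iPKR vehicle. The general genes took 2.53% ± 1.88 in 5xFAD iPKR, 1.88% ± 0.876 in iPKR ASV and 1.3% ± 0.0520 in iPKR vehicle, against 0.313% ± 0.159 in 5xFAD TRAP and 0.221% ± 0.0159 in TRAP. Wilson intervals were at most 9.87% of the excitatory share and 12.1% of the inhibitory share, in libraries with as few as 395 and 262 counts of these classes.

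**Figure D1:**
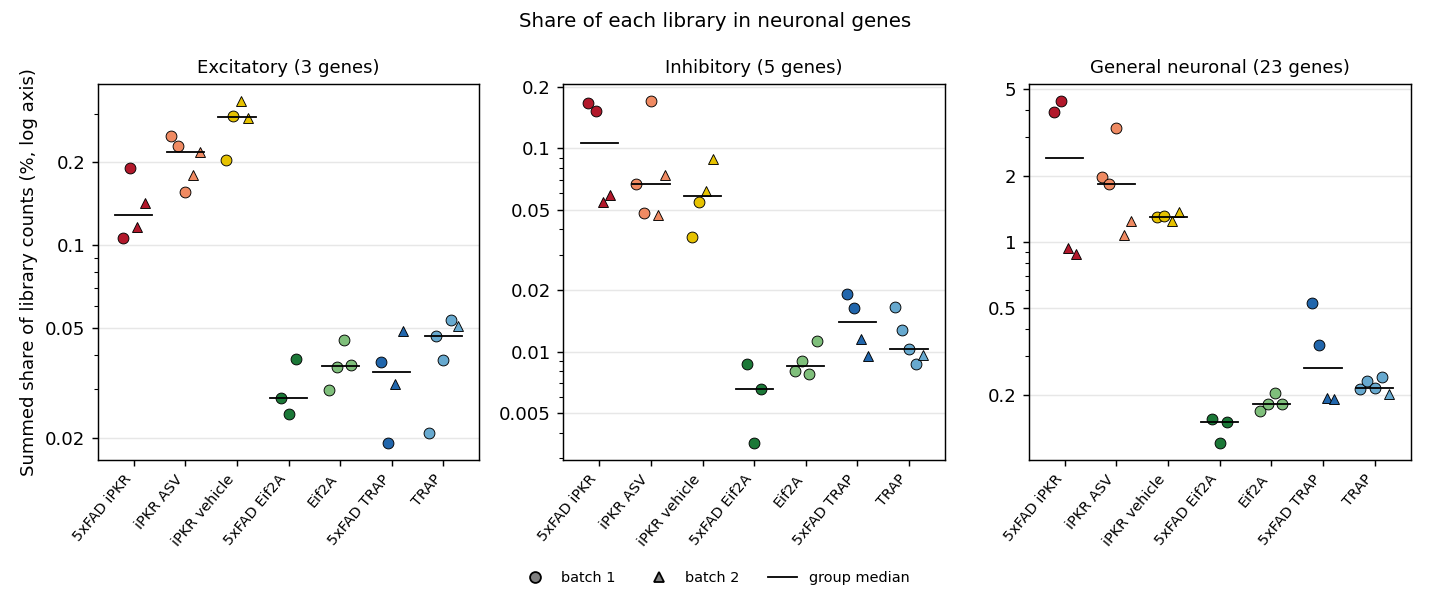
Share of each library's counts (percent, log axis) taken by the 3 excitatory, 5 inhibitory and 23 general neuronal genes, by group; circles are batch 1 libraries, triangles batch 2 libraries, and bars the group medians. All iPKR libraries lie above all others in every panel, and in the general panel the batch 1 libraries of 5xFAD iPKR stand above those of batch 2.

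With the iPKR allele and vehicle, all 31 neuronal genes rose relative to TRAP. In iPKR vehicle against TRAP, 31 of 31 members were called higher, while 28.6% of all genes tested were called higher, 25.4% lower and 54.1% in either direction. The median log2 fold change of the members was 2.50, from 1.48 for Sst to 3.1 for Nefm, and that of all genes was 0.17. Medians were 2.52 for the excitatory, 2.14 for the inhibitory, 2.63 for the presynaptic, 2.31 for the postsynaptic and 2.63 for the identity and cytoskeletal genes. For each of the 31 genes the lowest iPKR vehicle library lay above the highest TRAP library, which held for 24.8% of all genes tested. The smallest p-values belonged to Rbfox3, Stx1a, Slc17a7, Mapt and Cplx1. Within batch 1 alone 30 members were called higher, beside 26.7% of all genes, with a median of 2.28. Within batch 2 there were 27, beside 8.78% of all genes, with a median of 2.21; that batch has 1 TRAP library, which is assumed to vary like the libraries of other groups. Without the 8 libraries that went against their labelled sex, 31 were called, beside 28.3% of all genes, with a median of 2.33. None of these 8 is an iPKR vehicle or TRAP library. The libraries compared were thus the same, and only the genes tested and the estimates shared with other groups changed.

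The same genes were higher when amyloid mice with and without the iPKR allele received the same treatment. In 5xFAD iPKR against 5xFAD TRAP, 31 of 31 members were called higher, beside 25% of all genes called higher, 23% called lower and 47.9% called in either direction. Their median log2 fold change was 2.38, from 1.01 for Vamp2 to 3.6 for Grin1, and the median of all genes was 0.21. By class the medians were 2.06 for excitatory, 2.30 for inhibitory, 2.50 for presynaptic, 2.91 for postsynaptic and 2.34 for identity and cytoskeletal genes. The groups did not overlap for 29 members (19.9% of all genes tested); Nrgn and Snap25 overlapped. Within batch 1 alone the count was 31, beside 18.3% of all genes, with a median of 2.93. Within batch 2 it was 29, beside 13.1%, with a median of 1.76, the calls of Slc32a1 and Vamp2 being lost. Without the 3 libraries richest in these genes, 5xFAD iPKR keeps replicates 3 and 4 alone, of batch 2. The count was then 30, beside 20.1%, with a median of 1.75, the call of Slc32a1 being lost. Without the 8 libraries that went against their labelled sex it was 29, beside 19.8%, with a median of 1.67, the calls of Slc32a1 and Grin1 being lost.

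**Figure D2:**
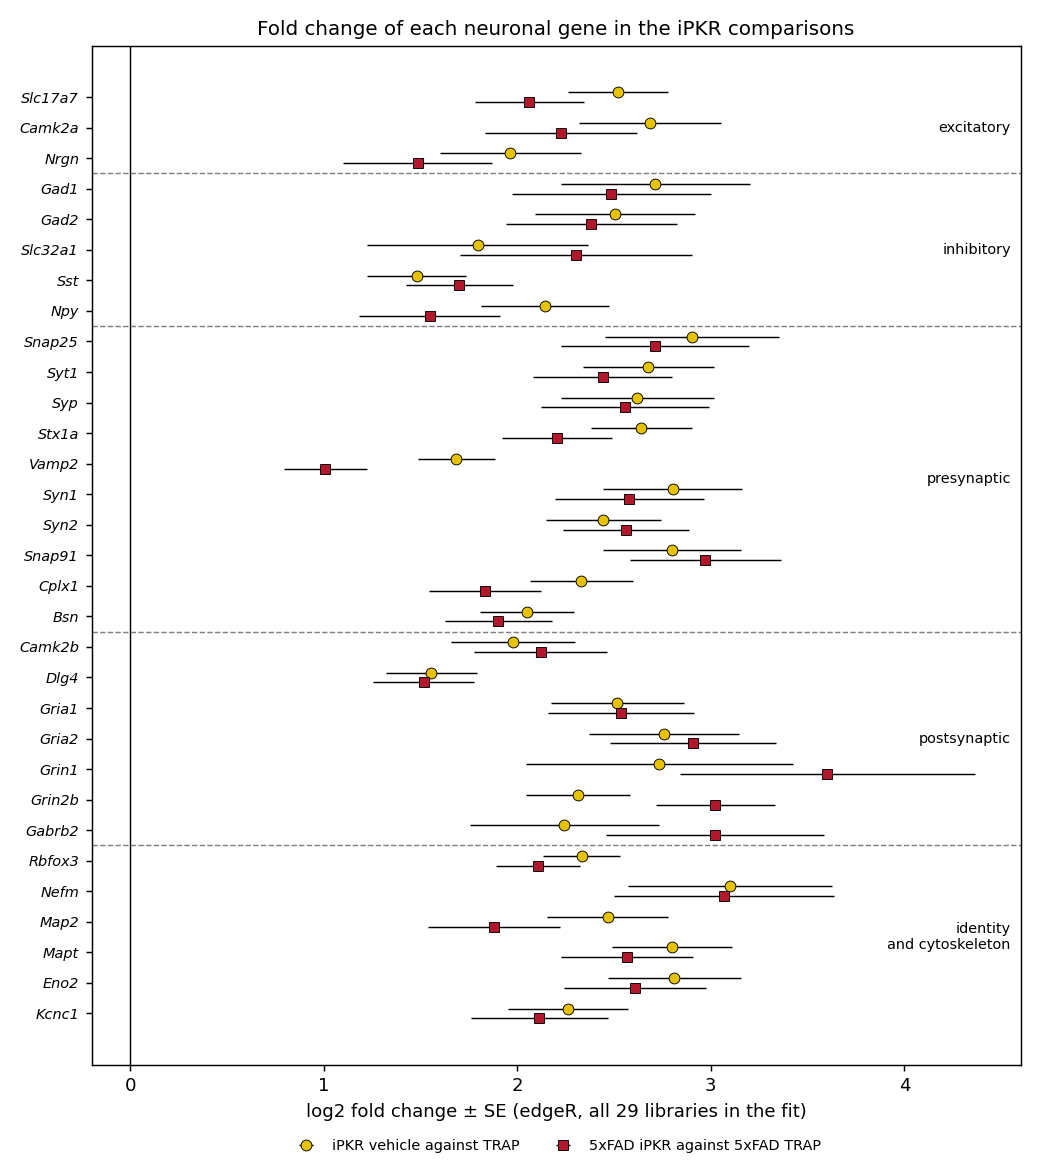
Log2 fold change of each neuronal gene (points) with its standard error (bars) in iPKR vehicle against TRAP (circles) and in 5xFAD iPKR against 5xFAD TRAP (squares). All points lie above 0; Grin1 and Grin2b are higher in the second comparison, and Nrgn and Vamp2 lower.

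Genes of several other cell types and of the nucleus differed between the same groups. Of all genes tested, 28.6% were called higher and 25.4% lower in iPKR vehicle against TRAP. In 5xFAD iPKR against 5xFAD TRAP these shares were 25% and 23%. Of 9 astrocyte genes, 8 were called higher and 1 lower in iPKR vehicle against TRAP, with summed shares of 0.128% to 0.199% of counts in iPKR vehicle, against 0.0535% to 0.0706% in TRAP. Of 12 oligodendrocyte genes 9 were higher, with shares of 0.126% to 0.421% of counts in iPKR vehicle, against 0.0553% to 0.0886% in TRAP. Of 5 nuclear long noncoding RNAs, the list that includes Malat1, 4 were higher, with shares of 0.112% to 0.284% of counts in iPKR vehicle, against 0.0109% to 0.0363% in TRAP. All 16 homeostatic microglial genes were called lower, at a median of -4.38 on the log2 scale; Csf1r, the receptor for the growth factor that microglia need, stood at 103, 189, 142 and 145 CPM in iPKR vehicle, against 2030, 2164, 2326, 2392 and 2339 CPM in TRAP. In 5xFAD iPKR against 5xFAD TRAP, 8 of 9 astrocyte, 12 of 12 oligodendrocyte and 4 of 5 nuclear genes were higher, and 16 of 16 homeostatic genes were lower with a median of -2.83. Summed shares were 0.145% to 0.530% in 5xFAD iPKR, against 0.0436% to 0.0558% in 5xFAD TRAP, for the astrocyte genes. For the oligodendrocyte genes they were 0.211% to 0.441% in 5xFAD iPKR, against 0.0533% to 0.0686% in 5xFAD TRAP, and for the nuclear RNAs 0.0143% to 0.173% in 5xFAD iPKR, against 0.00382% to 0.0377% in 5xFAD TRAP. Endothelial genes were mixed: 4 of 11 were higher and 1 lower in iPKR vehicle against TRAP, and 5 were higher and 1 lower in 5xFAD iPKR against 5xFAD TRAP. Of 5 oligodendrocyte precursor genes, 3 and 4 were higher in these comparisons. Genes of border macrophages went the other way, with 8 of 9 lower in iPKR vehicle against TRAP and 3 lower in 5xFAD iPKR against 5xFAD TRAP. Their summed shares were 0.00419% to 0.00510% in iPKR vehicle, against 0.0178% to 0.0563% in TRAP. The part of these shifts in the values of the neuronal genes was not tested.

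**Figure D3:**
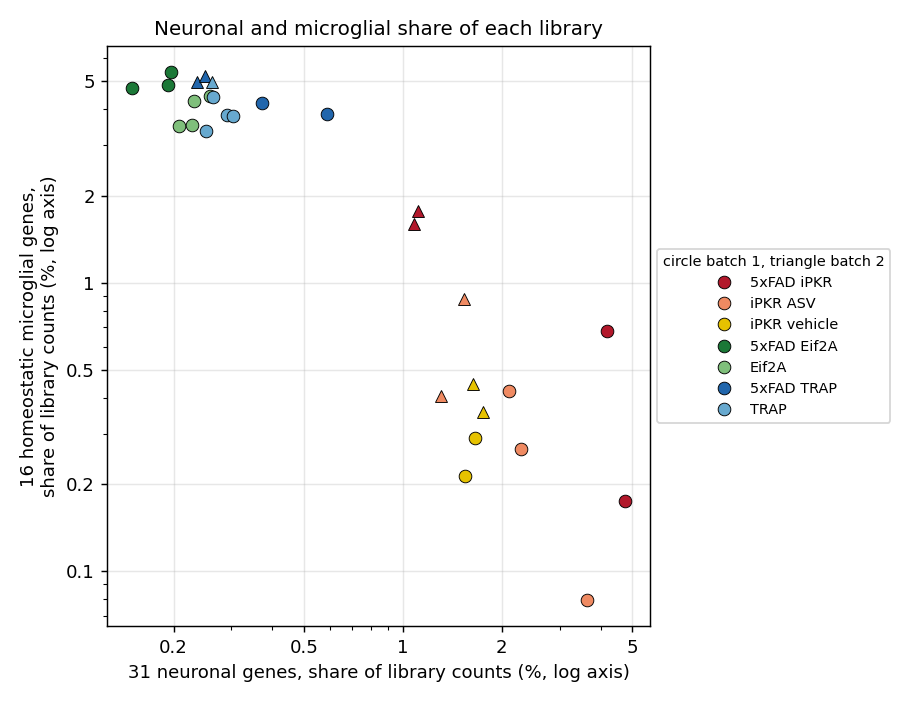
Share of counts of the 31 neuronal genes (x axis) against that of 16 homeostatic microglial genes (y axis) in each of the 29 libraries, both in percent on log axes. The 13 iPKR libraries lie at 1.08% or more on the x axis and 1.77% or less on the y axis, apart from the 16 others.

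Of 60 further neuronal genes tested, 55 rose and 1 fell in iPKR vehicle against TRAP, beside 28.6% of all genes called higher and 25.4% lower. All 10 excitatory genes of this second list were higher, led by Slc30a3 at 2.45 ± 0.22 (SE, adjusted p = 9.80e-10), which encodes the zinc transporter of glutamatergic vesicles, and Neurod2 at 2.84 ± 0.27 (SE, adjusted p = 2.67e-09), a transcription factor of cortical excitatory neurons. Of 11 inhibitory genes 7 were higher, with the smallest p for Lhx6 at 2.86 ± 0.51 (SE, adjusted p = 2.87e-05), a transcription factor of interneurons, and Reln at 2.46 ± 0.52 (SE, adjusted p = 0.000244), which encodes the secreted protein reelin. Of 39 general genes 38 were higher, with Unc13a at 2.46 ± 0.23 (SE, adjusted p = 2.65e-09), a vesicle priming factor, and Stmn2 at 2.39 ± 0.23 (SE, adjusted p = 3.52e-09), a regulator of neuronal microtubules, in front; the 1 that fell was Syngr1, a vesicle protein gene named after its value was seen. In 5xFAD iPKR against 5xFAD TRAP, 56 of 60 rose and 1 fell, beside 25% of all genes called higher and 23% lower. By list, 10 of 10 excitatory, 9 of 11 inhibitory and 37 of 39 general genes were higher. Within each list the smallest p-values there were as follows, with fold changes on the log2 scale. Among the excitatory genes they belonged to Slc30a3 (2.55) and Neurod2 (2.17). Among the inhibitory genes they belonged to Reln (2.8) and the interneuron homeobox gene Dlx5 (2.98). Among the general genes they belonged to the neuronal RNA-binding protein gene Celf4 (2.48) and the postsynaptic scaffold gene Shank2 (2.65).

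The excitatory genes rose in both iPKR comparisons. Slc17a7 stood at 884, 918, 894 and 892 CPM in the iPKR vehicle libraries, against 112, 149, 135, 183 and 196 CPM in the TRAP libraries. Slc17a7 was at 599, 836, 356 and 481 CPM in 5xFAD iPKR, against 152, 98.6, 123 and 183 CPM in 5xFAD TRAP. Slc17a7 (chr7:45163949-45176142, mm10), which encodes the vesicular glutamate transporter of cortical excitatory neurons, was thus within a narrow range in iPKR vehicle, and every iPKR vehicle library was above every TRAP library. Its log2 fold change was 2.52 ± 0.26 (SE, adjusted p = 9.25e-09) in iPKR vehicle against TRAP and 2.06 ± 0.28 (SE, adjusted p = 2.01e-06) in 5xFAD iPKR against 5xFAD TRAP, or 1.59 (adjusted p = 6.89e-05) without the 3 libraries richest in neuronal genes. Slc17a7 was at 634, 702, 832, 584 and 689.7 CPM in iPKR ASV, 64.9, 64.2 and 109 CPM in 5xFAD Eif2A and 82.1, 125, 138 and 175 CPM in Eif2A. The 3 libraries richest in neuronal genes, with 599 and 836 CPM in 5xFAD iPKR replicates 1 and 2 and 832 CPM in iPKR ASV replicate 3, were below every iPKR vehicle library for Slc17a7.

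Camk2a encodes the alpha subunit of the calcium/calmodulin-dependent kinase abundant in excitatory dendrites (chr18:60925618-60988152). Camk2a stood at 138, 101, 153 and 145 CPM in the iPKR vehicle libraries, against 17.5, 21.7, 29.97, 16.1 and 30.2 CPM in the TRAP libraries. Among mice with 5xFAD, Camk2a was at 206, 424, 82.2 and 111 CPM in 5xFAD iPKR, against 53.4, 24.1, 37.3 and 42.5 CPM in 5xFAD TRAP. Replicates 1 and 2 of 5xFAD iPKR, both of batch 1, were above replicates 3 and 4 of batch 2, and neither pair of groups overlapped. Camk2a had log2 fold changes of 2.69 ± 0.37 (SE, adjusted p = 7.30e-07) in iPKR vehicle against TRAP and 2.23 ± 0.39 (SE, adjusted p = 4.17e-05) in 5xFAD iPKR against 5xFAD TRAP, or 1.11 (adjusted p = 0.00929) without the 3 libraries richest in neuronal genes. In iPKR ASV Camk2a was at 191, 131, 268, 127 and 146 CPM, in 5xFAD Eif2A at 24.98, 18.6 and 40.1 CPM and in Eif2A at 22.5, 15.2, 19.4 and 27.2 CPM.

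Nrgn encodes neurogranin, a calmodulin-binding protein of dendritic spines (chr9:37544492-37552904). Nrgn stood at 639, 1605, 1606 and 1259 CPM in the iPKR vehicle libraries, against 84.7, 338, 269.8, 374 and 335 CPM in the TRAP libraries. The 5xFAD iPKR libraries gave 264, 618, 539.8 and 635 CPM of Nrgn, against 205, 93.7, 204 and 337 CPM in 5xFAD TRAP. The lowest iPKR vehicle library was above the highest TRAP library, while 5xFAD iPKR replicate 1 fell among the 5xFAD TRAP libraries. Its log2 fold changes were 1.96 ± 0.36 (SE, adjusted p = 4.75e-05) in the first comparison and 1.48 ± 0.39 (SE, adjusted p = 0.00246) in the second, or 1.5 (adjusted p = 0.00922) without the 3 libraries richest in neuronal genes. The other libraries held 1089, 1079, 512, 574 and 875 CPM of Nrgn in iPKR ASV, 269, 232 and 344 CPM in 5xFAD Eif2A and 255, 264, 349 and 232 CPM in Eif2A. Within iPKR ASV, replicate 3 was the lowest for Nrgn although it was the highest of its group for Slc17a7 and Camk2a.

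The inhibitory genes also rose in both comparisons. Gad1 encodes the enzyme that makes most of the GABA in interneurons (chr2:70553072-70602014); the table also counts Gad1os, which overlaps it, so reads of the overlap are uncertain if counting ignored strand. Gad1 stood at 171, 232, 228 and 453 CPM in the iPKR vehicle libraries, against 96.3, 85.9, 37.99, 36.5 and 44.8 CPM in the TRAP libraries. In the 5xFAD iPKR libraries Gad1 was at 905, 1123, 224 and 246 CPM, against 126, 101, 58.02 and 52.1 CPM in 5xFAD TRAP. Replicates 1 and 2 of 5xFAD iPKR stood several-fold above replicates 3 and 4, and neither pair of groups overlapped. The log2 fold changes were 2.71 ± 0.49 (SE, adjusted p = 3.34e-05) in iPKR vehicle against TRAP and 2.49 ± 0.51 (SE, adjusted p = 0.000251) in 5xFAD iPKR against 5xFAD TRAP, or 1.55 (adjusted p = 0.00859) without the 3 libraries richest in neuronal genes. Gad1 was at 281, 208, 1278, 158 and 224 CPM in iPKR ASV, 44.5, 13.7 and 30.8 CPM in 5xFAD Eif2A and 26.5, 37.8, 35.4 and 43.7 CPM in Eif2A. In iPKR ASV, replicate 3 was more than 4 times as high as any other library of its group.

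**Figure D4:**
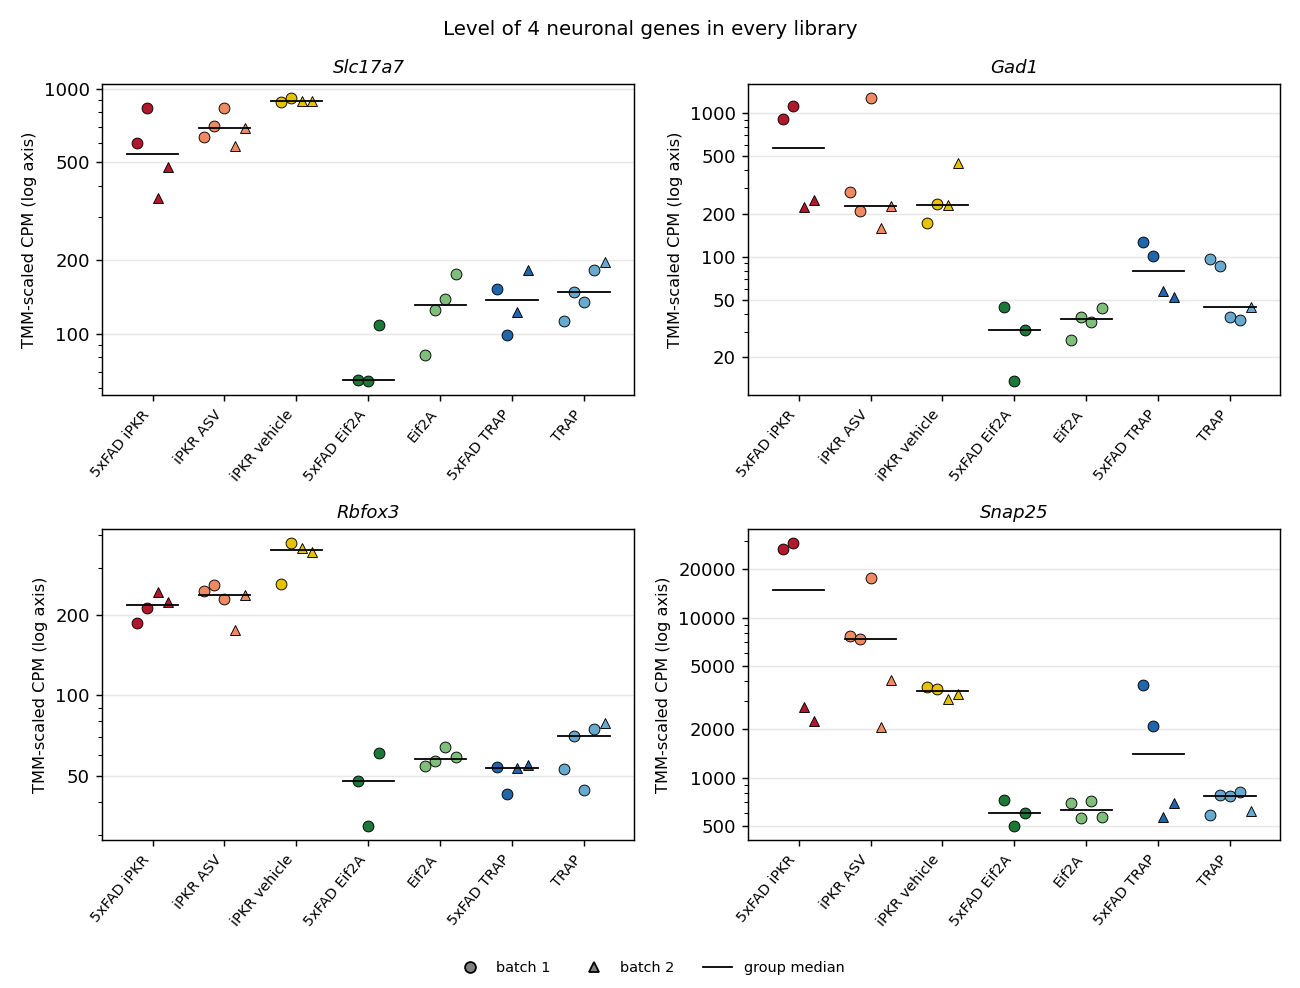
TMM-scaled CPM (log axis) of Slc17a7, Gad1, Rbfox3 and Snap25 in each library, by group; circles are batch 1, triangles batch 2. In the 13 iPKR libraries Slc17a7 lies between 356 and 918 CPM and Rbfox3 between 176 and 373 CPM, while Gad1 and Snap25 are highest in 5xFAD iPKR replicates 1 and 2 and iPKR ASV replicate 3.

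Gad2 encodes the second GABA-making enzyme, the one tied to vesicles (chr2:22622205-22693874). Gad2 stood at 46.3, 106, 52.6 and 71.7 CPM in the iPKR vehicle libraries, against 44.96, 19.6, 20.7, 12.1 and 8.85 CPM in the TRAP libraries. Gad2 was at 633, 222, 72.5 and 96.5 CPM in 5xFAD iPKR, against 39.05, 46.6, 24.4 and 8.17 CPM in 5xFAD TRAP. The lowest iPKR vehicle value was just above the highest TRAP value, that of replicate 1, and the 5xFAD groups did not overlap. Gad2 had log2 fold changes of 2.5 ± 0.41 (SE, adjusted p = 1.06e-05) in iPKR vehicle against TRAP and 2.38 ± 0.44 (SE, adjusted p = 7.76e-05) in 5xFAD iPKR against 5xFAD TRAP, or 1.76 (adjusted p = 0.00636) without the 3 libraries richest in neuronal genes. In iPKR ASV Gad2 was at 105, 88.5, 377, 53.1 and 93.4 CPM, in 5xFAD Eif2A at 16.96, 4.74 and 5.16 CPM and in Eif2A at 15.1, 11.6, 6.63 and 23.3 CPM. As for Gad1, iPKR ASV replicate 3 was far above the rest of its group.

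Slc32a1 encodes the transporter that loads GABA into vesicles (chr2:158610767-158615748) and had fewer than 10 counts in 8 libraries. Slc32a1 stood at 3.63, 2.67, 4.42 and 7.14 CPM in the iPKR vehicle libraries, against 2.04, 1.198, 1.67, 1.16 and 0.769 CPM in the TRAP libraries. Among mice with 5xFAD, Slc32a1 was at 27.4, 21.3, 10.4 and 7.88 CPM in 5xFAD iPKR, against 4.005, 0.548, 4.92 and 2.102 CPM in 5xFAD TRAP. These groups did not overlap, but the lowest count behind a value was 1. The log2 fold changes were 1.79 ± 0.57 (SE, adjusted p = 0.00941) in iPKR vehicle against TRAP and 2.3 ± 0.60 (SE, adjusted p = 0.00252) in 5xFAD iPKR against 5xFAD TRAP, or 1.29 (adjusted p = 0.168) without the 3 libraries richest in neuronal genes. The other libraries held 7.01, 3.397, 15.3, 11.6 and 10.2 CPM of Slc32a1 in iPKR ASV, 0.547, 0.526 and 1.33 CPM in 5xFAD Eif2A and 1.801, 0.828, 1.51 and 1.24 CPM in Eif2A.

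Sst encodes somatostatin, a peptide of a large interneuron class (chr16:23889573-23890958). Sst stood at 49.1, 84.1, 119 and 92.9 CPM in the iPKR vehicle libraries, against 20.4, 20.7, 43.3, 29.8 and 34.04 CPM in the TRAP libraries. The 5xFAD iPKR libraries gave 92.6, 96.5, 100.4 and 110.3 CPM of Sst, against 21.7, 27.9, 34.5 and 27.6 CPM in 5xFAD TRAP. The 5xFAD iPKR libraries were within a narrow range, without the gap between replicates seen for Gad1. Sst had the smallest fold change of the members in iPKR vehicle against TRAP, 1.48 ± 0.26 (SE, adjusted p = 2.00e-05), and 1.7 ± 0.28 (SE, adjusted p = 1.63e-05) in 5xFAD iPKR against 5xFAD TRAP, or 1.42 (adjusted p = 0.000707) without the 3 libraries richest in neuronal genes. Sst was at 71.4, 62.9, 66.3, 83.6 and 193 CPM in iPKR ASV, 34.5, 20.4 and 30.9 CPM in 5xFAD Eif2A and 39.98, 37.5, 31.7 and 49.01 CPM in Eif2A.

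Npy encodes neuropeptide Y, another peptide of cortical interneurons (chr6:49822710-49829507). Npy stood at 27.6, 58.5, 86.2 and 78.8 CPM in the iPKR vehicle libraries, against 6.13, 11.5, 13.4, 13.7 and 18.1 CPM in the TRAP libraries. In the 5xFAD iPKR libraries Npy was at 22.1, 45.6, 51 and 46.9 CPM, against 16.4, 7.12, 11.1 and 19.6 CPM in 5xFAD TRAP. Replicate 1 was the lowest library for Npy in both of these iPKR groups, and neither pair of groups overlapped. Npy had log2 fold changes of 2.14 ± 0.33 (SE, adjusted p = 4.52e-06) in iPKR vehicle against TRAP and 1.55 ± 0.36 (SE, adjusted p = 0.000950) in 5xFAD iPKR against 5xFAD TRAP, or 1.47 (adjusted p = 0.00745) without the 3 libraries richest in neuronal genes. In iPKR ASV Npy was at 46, 35.5, 31.5, 29.5 and 57.5 CPM, in 5xFAD Eif2A at 15.5, 6.67 and 14.97 CPM and in Eif2A at 13.3, 12.7, 10.96 and 16.1 CPM. The peptide genes Sst and Npy thus did not share the high values of Gad1 and Gad2 in 5xFAD iPKR replicates 1 and 2.

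Of the 10 presynaptic genes, all rose in both iPKR comparisons. Snap25 encodes a SNARE protein of the presynaptic membrane (chr2:136713453-136782428). Snap25 stood at 3682, 3581, 3100 and 3354 CPM in the iPKR vehicle libraries, against 587, 774, 769.5, 816 and 620.4 CPM in the TRAP libraries. Snap25 was at 26817, 29340, 2776 and 2272 CPM in 5xFAD iPKR, against 3793, 2108, 569 and 696 CPM in 5xFAD TRAP. Within 5xFAD iPKR, replicates 1 and 2 were about 10 times replicates 3 and 4, and in 5xFAD TRAP replicate 1 was above both 5xFAD iPKR libraries of batch 2. The log2 fold changes were 2.9 ± 0.45 (SE, adjusted p = 4.88e-06) in iPKR vehicle against TRAP, where the groups did not overlap, and 2.71 ± 0.49 (SE, adjusted p = 5.20e-05) in 5xFAD iPKR against 5xFAD TRAP, where they did. Without the 3 libraries richest in neuronal genes Snap25 was at 1.15 (adjusted p = 0.0237) in 5xFAD iPKR against 5xFAD TRAP. The other libraries held 7620, 7364, 17635, 2084 and 4101 CPM of Snap25 in iPKR ASV, 728, 499.7 and 599.5 CPM in 5xFAD Eif2A and 691, 557, 717 and 566 CPM in Eif2A. The batch 1 libraries of iPKR ASV, replicates 1 to 3, were all above the batch 2 libraries of that group, replicates 4 and 5.

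Syt1 encodes the calcium sensor of vesicle release (chr10:108497650-109010982), the longest member with a span of 513333 bases. Syt1 stood at 418, 594, 591 and 626 CPM in the iPKR vehicle libraries, against 74.7, 92.9, 109, 129 and 98.8 CPM in the TRAP libraries. Among mice with 5xFAD, Syt1 was at 906, 1448, 350.5 and 447 CPM in 5xFAD iPKR, against 149, 139, 144 and 93.4 CPM in 5xFAD TRAP. Neither pair of groups overlapped, and the 5xFAD iPKR libraries of batch 1 were again above those of batch 2. Syt1 had log2 fold changes of 2.68 ± 0.34 (SE, adjusted p = 2.19e-07) in iPKR vehicle against TRAP and 2.44 ± 0.36 (SE, adjusted p = 5.02e-06) in 5xFAD iPKR against 5xFAD TRAP, or 1.64 (adjusted p = 0.000181) without the 3 libraries richest in neuronal genes. Syt1 was at 647, 518, 1184, 548 and 420.0 CPM in iPKR ASV, 87.9, 64.7 and 117 CPM in 5xFAD Eif2A and 83.2, 48, 135 and 97.6 CPM in Eif2A.

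The other presynaptic genes fell into those that followed Snap25 and those that did not. Stx1a, the syntaxin of the SNARE complex, had log2 fold changes of 2.64 ± 0.26 (SE, adjusted p = 4.75e-09) in iPKR vehicle against TRAP and 2.2 ± 0.28 (SE, adjusted p = 1.01e-06) in 5xFAD iPKR against 5xFAD TRAP. For Cplx1, which encodes complexin, they were 2.33 ± 0.27 (SE, adjusted p = 5.15e-08) and 1.83 ± 0.29 (SE, adjusted p = 1.24e-05) in the same comparisons. Syn1 and Syn2, the synapsins that tether vesicles, had log2 fold changes of 2.8 and 2.44 in the first comparison and 2.58 and 2.56 in the second; Syn1 overlaps Araf in the annotation. Syn1 was at 968, 1167, 220.3 and 236 CPM in 5xFAD iPKR, against 119.5, 96.4, 68.4 and 61.9 CPM in 5xFAD TRAP. Vamp2, the SNARE protein of the vesicle (chr11:69088490-69092384), was at 853, 762, 1012 and 1049 CPM in 5xFAD iPKR, against 404, 411, 481 and 468 CPM in 5xFAD TRAP, so its batch 1 libraries were the lower ones. It had the smallest fold change of that comparison, 1.01 ± 0.21 (SE, adjusted p = 0.000342), or 1.26 (adjusted p = 5.20e-05) without the 3 libraries richest in neuronal genes. Snap91, which encodes a clathrin adaptor of vesicle recovery, reached 2.97 ± 0.39 (SE, adjusted p = 1.29e-06), and Syp, which encodes the vesicle protein synaptophysin, 2.56 ± 0.43 (SE, adjusted p = 2.66e-05), both in 5xFAD iPKR against 5xFAD TRAP. Without the 3 libraries richest in neuronal genes the log2 fold changes of that comparison were 2.02 for Stx1a, 1.94 for Cplx1, 1.75 for Syn1, 2.06 for Syn2, 2.71 for Snap91 and 1.35 for Syp, all called.

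Bsn encodes bassoon, a scaffold of the active zone where vesicles dock (chr9:108096022-108190384). Bsn stood at 153, 146, 192 and 139 CPM in the iPKR vehicle libraries, against 27.1, 28.5, 19.1, 37.4 and 41.9 CPM in the TRAP libraries. The 5xFAD iPKR libraries gave 52.3, 45.6, 99.8 and 165 CPM of Bsn, against 19.7, 18.6, 31.1 and 43.2 CPM in 5xFAD TRAP. Among the 5xFAD iPKR libraries replicates 1 and 2 were the lowest, the reverse of Snap25. The log2 fold changes were 2.05 ± 0.24 (SE, adjusted p = 8.97e-08) and 1.9 ± 0.28 (SE, adjusted p = 4.22e-06) in these comparisons, the second being 2.29 (adjusted p = 9.90e-07) without the 3 libraries richest in neuronal genes.

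All 7 postsynaptic genes rose in both comparisons. Grin2b encodes an NMDA receptor subunit (chr6:135713233-136173511) and overlaps the gene model Gm26653 in the table. Grin2b stood at 74.2, 70.8, 134 and 95.7 CPM in the iPKR vehicle libraries, against 10.8, 9.18, 13.3, 22.3 and 23.1 CPM in the TRAP libraries. In the 5xFAD iPKR libraries Grin2b was at 90.1, 101, 78.7 and 116 CPM, against 14.02, 10.4, 14.2 and 14.5 CPM in 5xFAD TRAP. The 5xFAD iPKR libraries stood close together, without a gap between batches and without overlap with 5xFAD TRAP. Grin2b had log2 fold changes of 2.31 ± 0.27 (SE, adjusted p = 6.01e-08) in iPKR vehicle against TRAP and 3.02 ± 0.31 (SE, adjusted p = 8.49e-08) in 5xFAD iPKR against 5xFAD TRAP, the smallest p of the members in that second comparison. That value became 2.77 (adjusted p = 1.28e-06) without the 3 libraries richest in neuronal genes. In iPKR ASV Grin2b was at 88.1, 70.6, 83.95, 183 and 97.8 CPM, in 5xFAD Eif2A at 8.21, 12.98 and 8.15 CPM and in Eif2A at 10.98, 27.3, 21.3 and 23.8 CPM.

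Grin1 encodes the subunit shared by all NMDA receptors (chr2:25291181-25319187). Grin1 stood at 17.9, 24.3, 29.2 and 29.1 CPM in the iPKR vehicle libraries, against 6.71, 2.395, 2.39, 7.31 and 6.15 CPM in the TRAP libraries. Grin1 was at 201, 224, 18.6 and 22.8 CPM in 5xFAD iPKR, against 16.02, 9.86, 4.92 and 3.27 CPM in 5xFAD TRAP. Unlike Grin2b, Grin1 was about 10 times higher in 5xFAD iPKR replicates 1 and 2 than in replicates 3 and 4. Its log2 fold change was 2.73 ± 0.69 (SE, adjusted p = 0.00152) in iPKR vehicle against TRAP and 3.6 ± 0.76 (SE, adjusted p = 0.000339) in 5xFAD iPKR against 5xFAD TRAP, the largest of the members there. Without the 3 libraries richest in neuronal genes, the value in 5xFAD iPKR against 5xFAD TRAP was 1.67 (adjusted p = 0.0426).

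Among the AMPA receptor subunits, Gria1 had log2 fold changes of 2.52 in iPKR vehicle against TRAP and 2.54 in 5xFAD iPKR against 5xFAD TRAP, and Gria2 of 2.76 and 2.91. Gria2 was at 1175, 1392, 252 and 239.6 CPM in 5xFAD iPKR, against 108, 104, 82.1 and 62.6 CPM in 5xFAD TRAP, with replicates 1 and 2 far above the others. Camk2b, which encodes the beta subunit of the kinase, stood at 1530, 1410, 453 and 346 CPM in 5xFAD iPKR, against 178, 160.0, 156 and 108 CPM in 5xFAD TRAP, with the same 2 libraries on top. Dlg4, which encodes the scaffold PSD-95, did not follow: it was at 64.4, 35.5, 39.6 and 46.3 CPM in 5xFAD iPKR, against 17.4, 19.2, 18.1 and 11.2 CPM in 5xFAD TRAP. Dlg4 had log2 fold changes of 1.55 in iPKR vehicle against TRAP and 1.52 in 5xFAD iPKR against 5xFAD TRAP, and Gabrb2, a GABA-A receptor subunit gene, of 2.24 and 3.02. When the 3 libraries richest in neuronal genes were left out, 5xFAD iPKR against 5xFAD TRAP gave 1.94 for Gria1, 1.68 for Gria2, 1.36 for Camk2b, 1.48 for Dlg4 and 2.29 for Gabrb2, all called.

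The 6 identity and cytoskeletal genes rose in both comparisons too. Rbfox3 encodes NeuN, a splicing factor used as the nuclear stain for neurons (chr11:118489762-118911597). Rbfox3 stood at 261, 373, 356 and 344 CPM in the iPKR vehicle libraries, against 52.8, 70.4, 44.3, 74.8 and 78.5 CPM in the TRAP libraries. Among mice with 5xFAD, Rbfox3 was at 186, 212, 244 and 224 CPM in 5xFAD iPKR, against 53.7, 42.7, 53.6 and 54.6 CPM in 5xFAD TRAP. Its iPKR libraries lay between 176 and 373 CPM, and neither pair of groups overlapped. The log2 fold changes were 2.33 ± 0.20 (SE, adjusted p = 6.18e-10) in iPKR vehicle against TRAP, the smallest p of the members, and 2.11 ± 0.22 (SE, adjusted p = 9.17e-08) in 5xFAD iPKR against 5xFAD TRAP, or 2.19 (adjusted p = 4.80e-07) without the 3 libraries richest in neuronal genes. The other libraries held 247, 259, 230.1, 176 and 238 CPM of Rbfox3 in iPKR ASV, 47.96, 32.5 and 60.7 CPM in 5xFAD Eif2A and 54.2, 56.8, 64.1 and 58.9 CPM in Eif2A.

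Nefm encodes the medium neurofilament chain of axons (chr14:68082590-68124846) and had the largest fold change of the members in iPKR vehicle against TRAP. Nefm stood at 219, 239, 216 and 174 CPM in the iPKR vehicle libraries, against 21.9, 41.1, 42.9, 47.1 and 32.9 CPM in the TRAP libraries. The 5xFAD iPKR libraries gave 1075, 1567, 130.2 and 134 CPM of Nefm, against 108, 80.5, 30.6 and 35.7 CPM in 5xFAD TRAP. Replicates 1 and 2 of 5xFAD iPKR were about 10 times replicates 3 and 4, as for Snap25 and Grin1. Nefm had log2 fold changes of 3.1 ± 0.53 (SE, adjusted p = 1.69e-05) in iPKR vehicle against TRAP and 3.07 ± 0.57 (SE, adjusted p = 7.81e-05) in 5xFAD iPKR against 5xFAD TRAP, or 1.76 (adjusted p = 0.000548) without the 3 libraries richest in neuronal genes. Mapt, which encodes tau, had 2.8 ± 0.31 (SE, adjusted p = 2.96e-08) in the first comparison. Map2, the dendritic microtubule protein gene, had 2.47 and 1.88, Eno2, the neuronal enolase gene, 2.81 and 2.61, and Kcnc1, which encodes a potassium channel of fast-spiking neurons, 2.26 and 2.11, each in iPKR vehicle against TRAP and in 5xFAD iPKR against 5xFAD TRAP. With those 3 libraries left out, the second comparison gave 2.31 for Mapt, 1.9 for Map2, 1.85 for Eno2 and 2.16 for Kcnc1, all called.

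The members did not move as a block within the iPKR groups. In 5xFAD iPKR, both batch 1 libraries were above both batch 2 libraries for 20 of 31 members and below them for 6, while 26.03% and 40.4% of all genes tested were above and below. The ratio of the batch means had a median of 2.49 and ran from 0.37 for Bsn to 11.1 for Snap25, with 10.3 for Grin1 and 9.98 for Nefm. The 6 members below were Sst, Npy, Vamp2, Bsn, Rbfox3 and Kcnc1. In iPKR ASV, batch 1 was above batch 2 for 12 members and below for 4 (12.8% and 17.6% of all genes). In iPKR vehicle it was above for 2 and below for 7 (20.01% and 19.3% of all genes), and the highest ratio there was 1.35. Batch 2 of each of these groups holds 2 libraries, so no test was made.

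**Figure D5:**
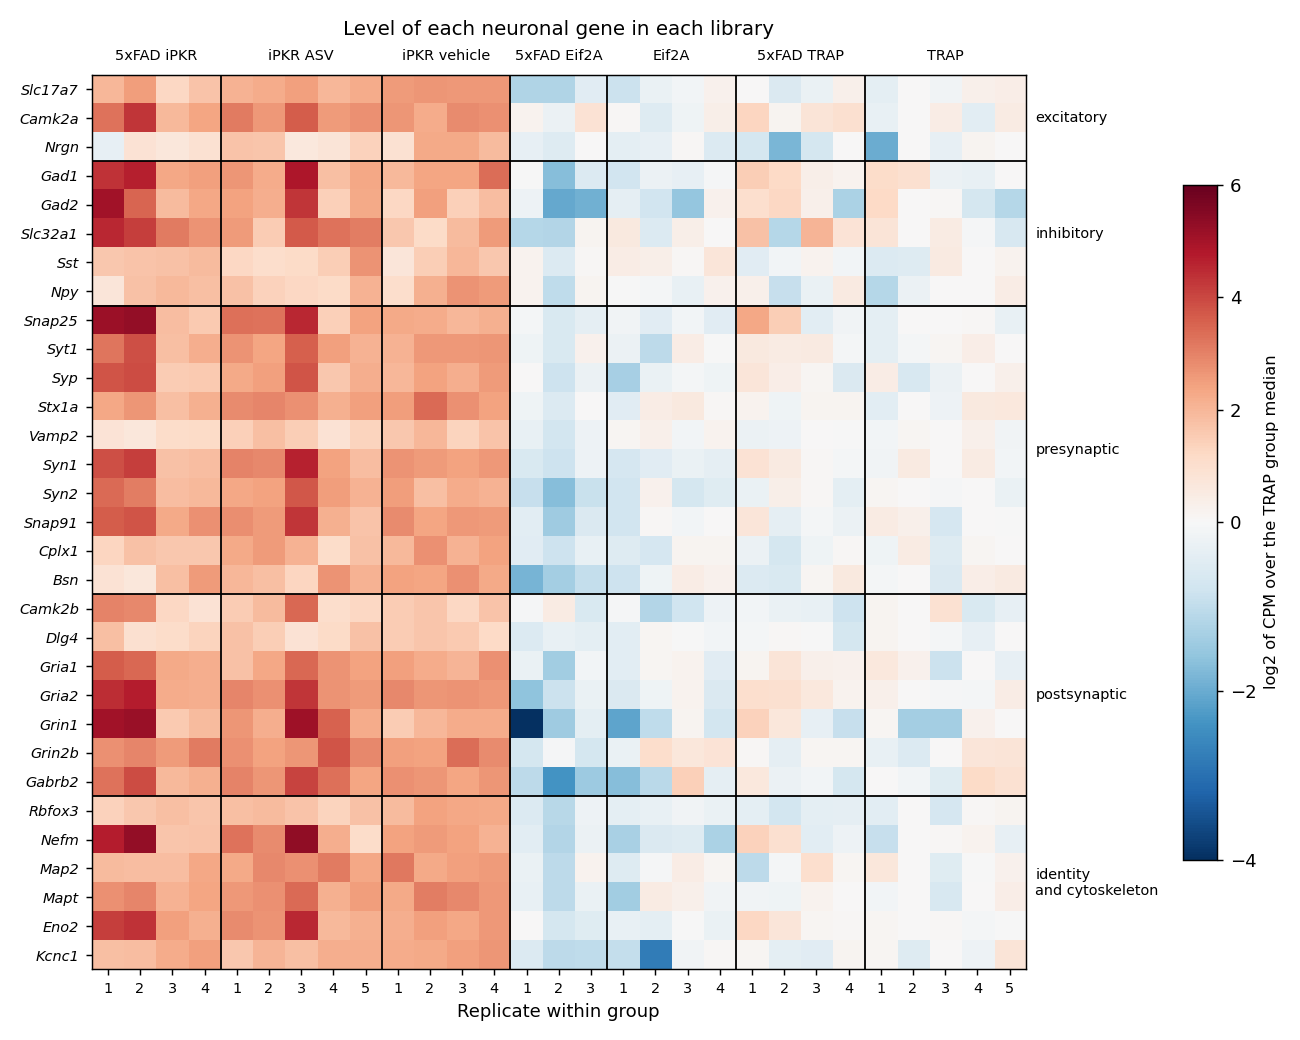
Log2 ratio of each member's CPM (31 genes in rows, by class) to its TRAP group median in each of the 29 libraries (columns, by group). The iPKR libraries are above 0 for all genes except Nrgn in 5xFAD iPKR replicate 1; 5xFAD iPKR replicates 1 and 2 and iPKR ASV replicate 3 are highest for Snap25, Grin1, Nefm, Gad1 and Gad2 and not for Rbfox3, Bsn or Vamp2.

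Ratios between members show the same split. These ratios of counts are not corrected for gene length, so only their change between libraries is read. Snap25 over Rbfox3 was 144 and 138 in 5xFAD iPKR replicates 1 and 2 and 76.7 in iPKR ASV replicate 3, and 70.6 and 49.3 in 5xFAD TRAP replicates 1 and 2. In the other 24 libraries it was 7.91 to 30.9. Snap25 made up 64.2%, 62.8%, 29.8% and 24.3% of the members' counts in 5xFAD iPKR, against 59.9%, 50.2%, 20.8% and 24.3% in 5xFAD TRAP. The share in 5xFAD TRAP replicates 1 and 2, both of batch 1, was thus above 50%, as in 5xFAD iPKR replicates 1 and 2. Library totals of 5xFAD iPKR were 2489068 and 1662486 counts in replicates 1 and 2, against 8197804 and 12496095 in replicates 3 and 4. In 5xFAD TRAP they were 3243477 and 2051955, against 4464542 and 4903468. Batch and depth thus cannot be told apart within these 2 groups.

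The balance of inhibitory to excitatory counts varied within groups. The 5 inhibitory genes had 1.57, 0.803, 0.468 and 0.414 times the counts of the 3 excitatory genes in 5xFAD iPKR, against 0.507, 0.848, 0.365 and 0.195 times in 5xFAD TRAP. The ratio was 0.179, 0.184, 0.185 and 0.306 in iPKR vehicle, against 0.792, 0.273, 0.269, 0.163 and 0.190 in TRAP. Each of these pairs of groups overlapped. In iPKR ASV it was 0.267, 0.208, 1.10, 0.261 and 0.338. The ratio was 0.312, 0.146 and 0.169 in 5xFAD Eif2A, against 0.269, 0.248, 0.170 and 0.307 in Eif2A. Thus only 5xFAD iPKR replicate 1 and iPKR ASV replicate 3 held more inhibitory than excitatory counts among the 29 libraries. Gad1, Gad2 and Slc32a1 were high in both of these libraries, while Sst and Npy were not. The 11 inhibitory genes of the second list took 0.0367% to 0.0461% of counts in 5xFAD iPKR, where the 5 members took 0.0544% to 0.1677%. In iPKR ASV these ranges were 0.0271% to 0.0613% and 0.0469% to 0.1715%.

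Nuclear RNA did not go with Snap25 within the iPKR groups. Malat1, a long noncoding RNA that stays in the nucleus, was at 90.5, 74.6, 581 and 678 CPM in 5xFAD iPKR and 1674, 1184, 277, 786 and 1069 CPM in iPKR ASV, so it was lowest in the libraries where Snap25 was highest. In iPKR vehicle it was at 570.0, 1094, 974 and 1155 CPM, against 210.5, 68.1, 57.5, 211 and 185 CPM in TRAP. In 5xFAD TRAP it was at 22.03, 35.6, 200.2 and 171 CPM, again lowest in replicates 1 and 2. Malat1 was called higher in iPKR vehicle against TRAP, with 2.21 ± 0.54 (SE, adjusted p = 0.00118), and in 5xFAD iPKR against 5xFAD TRAP, with 2.1 ± 0.60 (SE, adjusted p = 0.00527), on the log2 scale. Its part in the values of the neuronal genes was not tested.

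ASV did not change any neuronal gene past the threshold in mice with the iPKR allele. Y-linked counts went against the labelled sex in iPKR ASV replicates 1, 3, 4 and 5, and whether their treatment labels hold was not tested. In iPKR ASV against iPKR vehicle, edgeR called 0 of 31 members, beside 0.423% of all genes (0.317% higher and 0.106% lower), and DESeq2 and limma-trend also called 0; at an unadjusted p under 0.05 there was 1 member, lower, against 16.4% of all genes. The member was Rbfox3, at -0.51 ± 0.19 (SE, adjusted p = 0.189). The median log2 fold change was 0.09, from -0.56 ± 0.32 (SE, adjusted p = 0.379) for Npy to 1.31 ± 0.66 (SE, adjusted p = 0.317) for Grin1; Grin1 was at 0.6 (adjusted p = 0.534) without the 3 libraries richest in neuronal genes. For Slc17a7, Rbfox3 and Kcnc1 every iPKR ASV library was below every iPKR vehicle library (2.39% of all genes tested). Within batch 1 alone Snap25 was called, at 1.41 (adjusted p = 0.0450), on 3 iPKR ASV and 2 iPKR vehicle libraries. Of the 60 further neuronal genes, none was called by edgeR.

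Adding 5xFAD to the iPKR allele under ASV did not move the members past the threshold either. These groups hold libraries that went against their labelled sex, 5xFAD iPKR replicates 1 and 2 and iPKR ASV replicates 1, 3, 4 and 5. In 5xFAD iPKR against iPKR ASV edgeR called 0 of 31 members, beside 1.72% of all genes (1.54% higher and 0.18% lower), and DESeq2 and limma-trend called 0; 2 members had an unadjusted p under 0.05, both lower, against 13.3% of all genes. These were Vamp2, at -0.48 ± 0.20 (SE, adjusted p = 0.266), and Map2, at -0.71 ± 0.31 (SE, adjusted p = 0.306), which also had the lowest fold change. Snap25 had the highest, 0.78 ± 0.42 (SE, adjusted p = 0.438), and its sign depended on the libraries: within batch 1 it was 1.42 (adjusted p = 0.0244) and within batch 2 -0.4 (adjusted p = 0.822), and without the 3 richest libraries -0.53 (adjusted p = 0.550). The groups overlapped for all 31 members. Csf1r, at 1.49 ± 0.25 (SE, adjusted p = 0.000936), was higher in 5xFAD iPKR, and 5 of 16 homeostatic microglial genes were called higher there. It stood at 726, 253.9, 660.4 and 547.8 CPM in 5xFAD iPKR, against 106, 215.5, 187, 141.3 and 261.7 CPM in iPKR ASV. Replicate 2 of 5xFAD iPKR thus lay within the iPKR ASV range for Csf1r.

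In mice with the tag alone, amyloid and its treatment raised no member past the threshold. In 5xFAD TRAP against TRAP, edgeR called 0 of 31 members, beside 0.79% of all genes (0.709% higher and 0.0809% lower), limma-trend called 0 and DESeq2 called 1 higher, Snap25, beside 1.34% of all genes. At an unadjusted p under 0.05 there were 6 members, 5 higher and 1 lower, against 10.2% of all genes. Snap25 had the highest fold change, 1.47 ± 0.43 (SE, adjusted p = 0.135), and Nrgn the lowest, -0.68 ± 0.37 (SE, adjusted p = 0.549). The Snap25 values given above place 5xFAD TRAP replicates 1 and 2 above all TRAP libraries and replicates 3 and 4 among or below them. Within batch 1 alone the value was 2.06 (adjusted p = 0.000708), and within batch 2, which has 1 TRAP library assumed to vary like those of other groups, 0.11 (adjusted p = 1). Without TRAP replicate 5 Snap25 was called, at 1.92 (adjusted p = 0.0318). Snap25 and Eno2 were called higher when the 8 libraries that went against their labelled sex were left out, beside 1.49% of all genes. None of these 8 is a 5xFAD TRAP or TRAP library, so the libraries compared were the same. Of the 60 further neuronal genes Syngr1 was called, at 0.9 ± 0.17 (SE, adjusted p = 0.00567). Since VEGF and ASV were given to 5xFAD TRAP and not to TRAP mice, amyloid and treatment cannot be told apart here.

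Among the mice with eIF2α that cannot be phosphorylated, 2 members fell with 5xFAD. In 5xFAD Eif2A against Eif2A, edgeR called Bsn and Grin2b lower and the other 29 not, beside 3.1% of all genes called, 1.03% lower and 2.08% higher. Bsn was at 7.84, 11.1 and 14.6 CPM in 5xFAD Eif2A, against 16.03, 25.1, 39.3 and 33.8 CPM in Eif2A, without overlap, and its log2 fold change was -1.46 ± 0.29 (SE, adjusted p = 0.00331). Grin2b was at 8.21, 12.98 and 8.15 CPM in 5xFAD Eif2A, against 10.98, 27.3, 21.3 and 23.8 CPM in Eif2A, where replicate 1 lay within the 5xFAD Eif2A range; its value was -1.14 ± 0.31 (SE, adjusted p = 0.0391). The lowest fold change was that of Gabrb2, -1.67 ± 0.62 (SE, adjusted p = 0.166), and the highest that of Camk2b, 0.71 ± 0.35 (SE, adjusted p = 0.341). The median of the members was -0.35, and 5 of 31 had a positive fold change. Bsn, Vamp2 and Syn2 were below in every library (9.64% of all genes tested). Neither Bsn nor Grin2b was called in a model without batch, which called 0.529% of all genes lower (adjusted p = 0.0925 for Bsn and 0.137 for Grin2b). All libraries of these 2 groups were of batch 1, so leaving out batch changed only estimates shared with other groups. With a replicate block, without sex and by limma-trend, Bsn alone was called. DESeq2 called 3 lower, Vamp2 as well as these 2, beside 3.58% of all genes. Leaving out any library of the 2 groups other than Eif2A replicate 1 left Bsn as the 1 member called (adjusted p = 0.0636 to 0.202 for Grin2b), and so did leaving out the 8 libraries that went against their labelled sex, Eif2A replicates 3 and 4 among them (1.06% of all genes lower). Of the 60 further neuronal genes 3 were lower, with the smallest p for Shank2 at -2.01 ± 0.31 (SE, adjusted p = 0.000172), and 1 was higher, Syngr1 at 1.61 ± 0.19 (SE, adjusted p = 4.59e-06).

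No member passed the threshold between Eif2A and TRAP mice. In Eif2A against TRAP edgeR called 0 of 31 members and 0% of all genes, and DESeq2 and limma-trend called 0 members; 6 members had an unadjusted p under 0.05, 1 higher and 5 lower, against 5.67% of all genes. Fold changes ran from -1.13 ± 0.52 (SE, adjusted p = 0.866) for Nefm to 0.56 ± 0.26 (SE, adjusted p = 0.866) for Grin2b, with a median of -0.25. The 2 groups overlapped for 30 members; Syn1, at 41.2, 47.7, 53.9 and 50.8 CPM in Eif2A, against 59.9, 94.1, 65.5, 91.2 and 60.96 CPM in TRAP, did not.

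Of the 31 members, 1 was lower in 5xFAD Eif2A than in 5xFAD TRAP. In this comparison edgeR called Gad2 lower, at -2.66 ± 0.51 (SE, adjusted p = 0.0297), beside 0.168% of all genes called, 0.124% lower and 0.0435% higher. The Gad2 values given above overlap, since 5xFAD TRAP replicate 4 was below 5xFAD Eif2A replicate 1. The call was lost when any of the 7 libraries was left out (adjusted p = 0.0513 to 0.232), while DESeq2 called 7 members lower, beside 1.17% of all genes: Gad1, Gad2, Snap25, Syn1, Syn2, Gria2 and Eno2. Without the 8 libraries of other groups that went against their labelled sex, 6 were called lower, Gad2 among them, beside 0.482% of all genes. By edgeR Snap25 was at -2.12 (adjusted p = 0.0894), Gad1 at -2.15 (adjusted p = 0.129) and Gria2 at -1.86 (adjusted p = 0.0894) on the log2 scale. Unadjusted, 17 members had p under 0.05, all lower, against 10.8% of all genes. Nrgn had the highest fold change, 0.76 ± 0.43 (SE, adjusted p = 0.548), and the median was -0.81. For 11 members every 5xFAD Eif2A library was below every 5xFAD TRAP library (5.02% of all genes tested). These groups also differed in VEGF and ASV, and all 5xFAD Eif2A libraries were of batch 1.

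The change with 5xFAD was compared between the genetic backgrounds by a test of the difference itself. In the TRAP background this change includes VEGF and ASV, which were given to 5xFAD TRAP and not to TRAP mice. Both Eif2A groups received neither, while 5xFAD iPKR and iPKR ASV mice received both. Amyloid and treatment thus cannot be told apart in either difference. For Eif2A minus TRAP backgrounds edgeR called 0 of 31 members, beside 0.00622% of all genes, DESeq2 and limma-trend called 0, and 6 members had an unadjusted p under 0.05, all lower, against 4.27% of all genes. The differences ran from -1.86 (adjusted p = 1) for Slc32a1 to 0.67 (adjusted p = 1) for Camk2b on the log2 scale. For iPKR ASV minus TRAP backgrounds edgeR, DESeq2 and limma-trend called 0 members, beside 0.0373% of all genes by edgeR (0.00622% higher and 0.0311% lower), and 0 members had an unadjusted p under 0.05, against 6.74% of all genes. These differences ran from -0.71 (adjusted p = 0.894) for Camk2a to 0.46 (adjusted p = 0.924) for Grin2b. The difference for Bsn, called in 5xFAD Eif2A against Eif2A, was -0.93 (adjusted p = 1) between the Eif2A and TRAP backgrounds.

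The members vary in what the list did not use. Their spans in GENCODE M21 ran from 1386 bases for Sst to 513333 bases for Syt1, with a median of 60494. Across the 31 genes the log2 fold change had a Pearson r of 0.431 and a Spearman rho of 0.256 with the log10 span in iPKR vehicle against TRAP, and 0.457 and 0.418 in 5xFAD iPKR against 5xFAD TRAP. For the ratio of batch 1 to batch 2 in 5xFAD iPKR these were 0.122 and 0.124. These are descriptions of genes measured in the same libraries, and genes are not independent replicates. Syt1 and Rbfox3, with spans of 513333 and 421836 bases, had batch ratios of 2.95 and 0.851, and Sst and Npy, with spans of 1386 and 6798 bases, had 0.897 and 0.692.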

How the data were processed

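Cortical TRAP libraries of 29 mice in 7 groups were used as the authors deposited them. The authors' first table holds raw counts for 22327 gene symbols, made on mm10; the tools named are HISAT2 2.2.1, featureCounts 2.0.3 and Trim Galore, per the submitters' processing notes. Their second deposited table holds RPKM, and it served only for a limma-trend alternative on log2(RPKM + 0.1). The length behind the RPKM of the members was 0.912 to 1.0 of the whole gene span, with a median of 1.0. Whether reads in introns were counted was not tested. The SMART-Seq mRNA LP kit was used for library preparation, per the labels' protocols. Strand setting, annotation and treatment of multiply mapped reads are not given in the sources used here. Reads carry no molecular identifiers, so intervals cover counting error only.

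Groups, batch and sex came from the labels. Counts were tested in R 4.3.3 with edgeR 4.0.16: filterByExpr by group (minimum count 10, minimum total 15), TMM factors, and 1 robust quasi-likelihood model with group, batch and labelled sex on all 29 libraries (20 residual degrees of freedom). Tests were two-sided, with Benjamini-Hochberg adjustment over 16074 genes, a threshold of 0.05 and no minimum fold. The procedure was tested on simulated data. Alternatives were other size factors and filters, models without sex or batch, single batches, only the groups compared, a replicate block, DESeq2 1.42.0, limma 3.58.1 and each library left out. Chosen after seeing the data were sex from Y-linked counts (4 genes, 10 CPM) and the fits and shares without the 3 libraries richest in members or without the 8 that went against their labelled sex. The members, lists and named genes (12 markers by name, and in each comparison the called or smallest-p members and the extremes of fold change) were chosen with earlier results of these data known. In 5xFAD iPKR and 5xFAD TRAP, same-numbered libraries deviated together in all 4 pairs (r = 0.244, 0.166, 0.210 and 0.286), and their numbers follow the batch label; the fit with a replicate block called the same 31 members. Coordinates are mm10 from GENCODE M21; promoters are RefSeq GRCm38.p6.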

Additional observations from a re-analysis of the deposited data

Results flagged for a closer look

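Of 96 groups of values tested for a single library far from the others, 8 had one, and chance gives about 1 in 20. In iPKR ASV, replicate 3 was far above the other 4 libraries for Gad1 (1278 CPM), for Gad2 (376.7 CPM) and for the summed share of the inhibitory genes (0.1715% of counts). In the same group replicate 5 was highest for Sst at 192.6 CPM, and replicate 4 was highest for Grin2b at 182.6 CPM. Thus the GABA-making enzymes and the peptide gene Sst peaked in different libraries of that group. In 5xFAD TRAP, replicate 2 was lowest for Rbfox3 at 42.74 CPM and for Grin2b at 10.41 CPM. In iPKR vehicle, replicate 1 was lowest for Syt1 at 417.9 CPM. These values are descriptions of single libraries, and what sets them apart was not tested.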

How the results depend on the processing

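The 2 comparisons in which every member rose kept their direction and most of their calls: 27 to 31 members were called in iPKR vehicle against TRAP and 29 to 31 in 5xFAD iPKR against 5xFAD TRAP over 15 settings each (27 in batch 2 alone, with 1 TRAP library), and 31 to 31 when each library was left out in turn. In iPKR ASV against iPKR vehicle and in 5xFAD iPKR against iPKR ASV, batch 1 alone gave 1 call each (Snap25) in place of 0. Snap25 in 5xFAD iPKR against iPKR ASV turned negative in batch 2 alone (-0.40), without the 3 libraries richest in members (-0.53) and without the 8 libraries that went against their labelled sex (-0.76). In 5xFAD TRAP against TRAP, with 0 called, batch 1 alone, DESeq2 and only the groups compared gave 1, both fits without the libraries just named gave 2, and leaving out 1 library gave 0 to 1, the call being Snap25 (1.92, adjusted p = 0.0318 by edgeR) without TRAP replicate 5.

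In 5xFAD Eif2A against Eif2A, with 2 called, there were 0 without batch, 1 without sex, with sex from Y-linked counts, without the 8 libraries, by limma-trend and with the replicate block, 3 by DESeq2, 4 with only the groups compared, and 1 to 2 with a library left out. In 5xFAD Eif2A against 5xFAD TRAP, with 1 called, there were 0 without sex, without batch, with sex from Y-linked counts, by limma-trend and with the replicate block, 2 in batch 1 alone, 6 in both fits without the libraries named, 7 by DESeq2, 9 with only the groups compared, and 0 to 0 with a library left out. The difference of the 5xFAD effect between iPKR ASV and TRAP gave 1 call, Snap25, without the 3 richest libraries. Same-numbered libraries deviated together most in 5xFAD iPKR against 5xFAD TRAP. Every pair was also positive, more weakly, in 5xFAD Eif2A against Eif2A (r = 0.122, 0.0387 and 0.0868). The same held for 5xFAD Eif2A against 5xFAD TRAP (r = 0.0533, 0.0351 and 0.0479). The replicate block changed no count of calls other than the 2 given. A group left with 1 library (TRAP in batch 2, iPKR ASV without the 8 libraries) was assumed to vary like the others. The causes of these changes were not tested. TMM, RLE and upper-quartile factors put the median log2 fold change of all genes at 0.17, 0.16 and 0.20 in iPKR vehicle against TRAP and at 0.21, 0.29 and 0.29 in 5xFAD iPKR against 5xFAD TRAP, and every member stayed higher under each. Depth limits Slc32a1 and Grin1, with as few as 1 and 2 counts in a library.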
